A study of Homo sapiens with 9 samples.

Results

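The genes described here are THY1 and 9 other cell-surface adhesion molecules of the immunoglobulin superfamily, ICAM1, ICAM2, ICAM3, ICAM4, ICAM5, VCAM1, L1CAM, ALCAM and MCAM. They were found by matching Ensembl gene identifiers to these symbols, which gave 10 genes of the 60617 in the deposited count tables, each present once. The genes were chosen with their changes against the controls already known, so levels and fold changes against the controls are given as a description, without a test. The treated groups were compared with each other by a test, except for ICAM3, whose difference was known beforehand.

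RNA-seq had been performed on PC-3 cells, an established human cell line from a castration-resistant prostate cancer, after 5 days in culture with the agents. A total of 3 libraries came from control cells, 3 from cells treated with decitabine and 3 from cells given decitabine and SAM at the same time (combination treatment). Decitabine is a nucleoside analogue that traps DNA methyltransferases and thereby lowers DNA methylation, whereas SAM (S-adenosylmethionine) is the methyl donor of these enzymes. The doses in the study's methods were 1 µM of decitabine and 200 µM of SAM, and the controls received the vehicle. SAM without decitabine was not analysed here, so what SAM does by itself cannot be told apart from what it does beside decitabine. All groups came from the same single cell line, and the labels do not say whether the 3 libraries of a group were separate cultures, so p-values measure the spread between these libraries.

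Adhesion molecules of this superfamily carry immunoglobulin-like domains outside the cell. ICAMs and VCAM1 are ligands of integrins on leukocytes and are best known from the arrest of leukocytes on endothelium, where inflammatory signals through NF-kB and interferons switch ICAM1 and VCAM1 on. THY1 (CD90) is a small protein held in the membrane by a GPI anchor and known from T cells, neurons and fibroblasts. L1CAM, ALCAM (CD166) and MCAM (CD146) join cells to one another, were described in neurons, leukocytes and melanoma, and are also found on many carcinomas.

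Each library held between 21934307 and 22489684 estimated counts. Levels are given as CPM, counts scaled to a common library size with TMM, a correction for differences in RNA composition. As a check of the cell line, all 10 epithelial markers had counts in every group, with a summed level of 1346 to 1473 CPM in the controls, 1219 to 1247 CPM with decitabine and 1057 to 1166 CPM with the combination treatment. In both comparisons with the controls 6 of these markers were higher and 3 lower, the lower ones being KRT18, KRT19 and CLDN4, the most abundant in the controls. The higher ones included CDH1 (E-cadherin), at 2.94 with decitabine and 3.17 with the combination treatment on the log2 scale, and CLDN7, at 3.89 and 3.63. Of all genes tested, 36.3% were higher and 32.5% lower with decitabine, and 35.9% and 31.3% with the combination treatment. KLK3 (PSA), which PC-3 cells are known to lack, had no counts in any library.

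Of the 10 genes, THY1 and VCAM1 had no counts in the controls, ICAM2 and ICAM4 had at most a few, and the other 6 were expressed. After decitabine, the 3 libraries lay above the 3 controls for 10 of the 10 genes, where 38.1% of all genes tested were separated in this direction. After the combination treatment this held for 9 of the 10 genes, against 38% of all genes tested, with VCAM1 as the exception. These counts describe genes that were chosen on the same comparison.

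**Figure D1:**
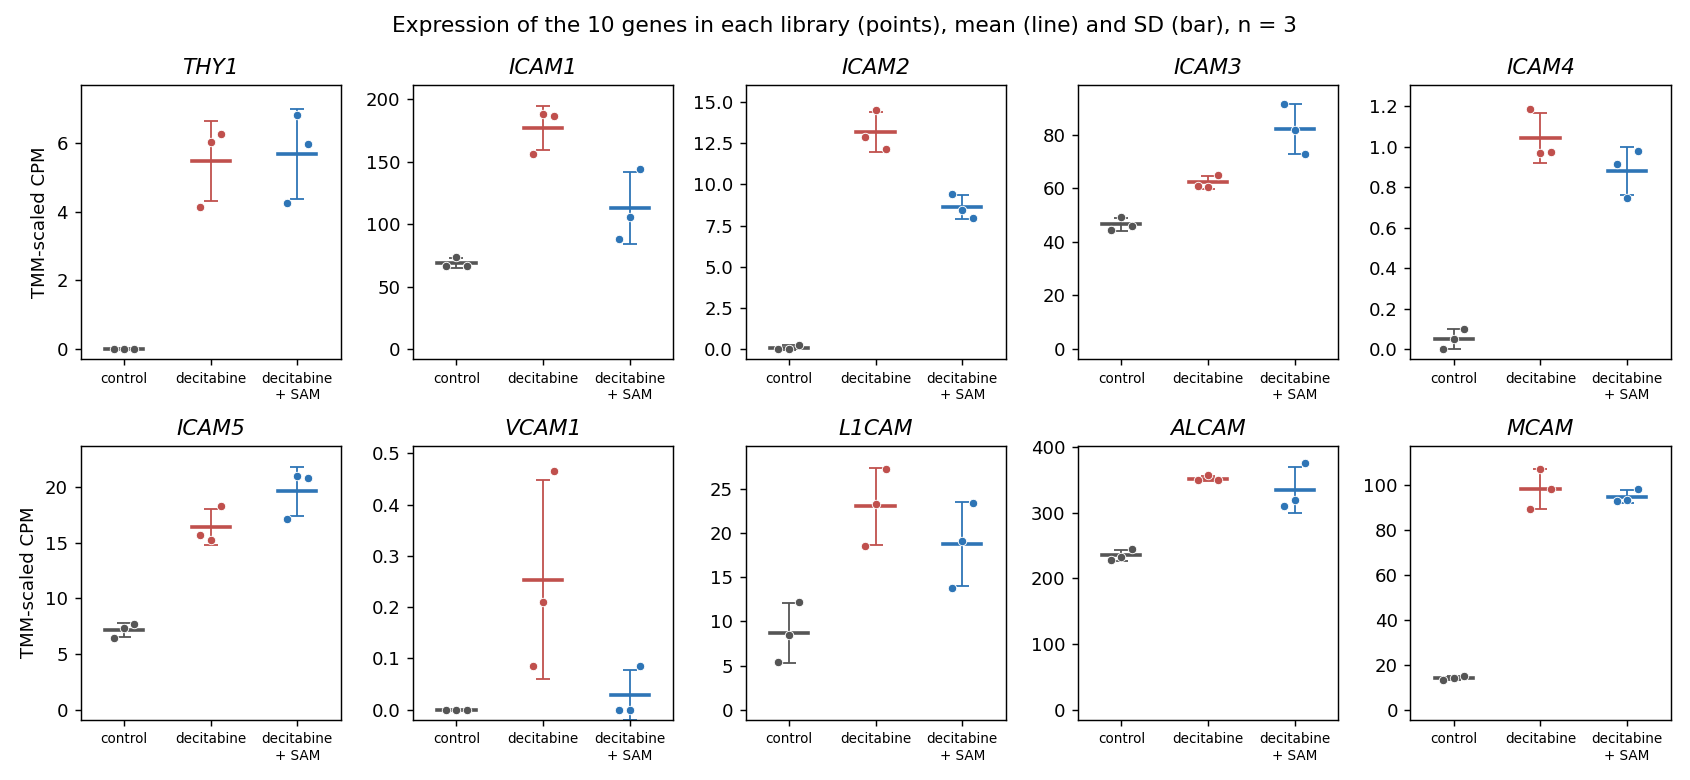
Levels of the 10 genes in each library, in TMM-scaled CPM on axes that start at 0, with points for libraries, a line for the mean and a bar for the SD of 3 libraries per group. The controls sit at 0 for THY1 and VCAM1 and lie below both treated groups for the others, while the treated groups separate for ICAM1, ICAM2 and ICAM3.

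THY1 (ENSG00000154096; GRCh38 chromosome 11, 119415476 to 119424985, minus strand) had 0 counts in each control library. It had 98, 143 and 148 counts in the libraries treated with decitabine, which is 5.48 ± 1.16 CPM (SD, n = 3). With the combination treatment it had 98, 155 and 140 counts, or 5.68 ± 1.30 CPM (SD, n = 3). THY1 was therefore absent at this depth in the controls and present at a low level in all 6 treated libraries. With the controls set at 3 counts over the group, the most that a count of 0 allows, THY1 was at least 110-fold higher after decitabine and at least 114-fold higher after the combination treatment. Such limits cover the counting error of the controls only, and take the counts of the treated group as observed. The treated groups overlapped, and their difference of 0.05 on the log2 scale had a 95% interval of -0.41 to 0.52 (adjusted p = 0.895, edgeR's quasi-likelihood test). In a culture of 1 line, more cells with a transcript and more RNA per cell cannot be told apart in bulk libraries.

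Antisense transcripts lie over some of these genes, and the sources used here do not state whether counting used the strand. The antisense gene THY1-AS1 had 2 counts in all, both in the combination group. The longer USP2-AS1 also spans THY1 on the other strand and had 4.46 ± 0.746 CPM in the controls, 2.13 ± 0.401 CPM after decitabine and 3.23 ± 0.552 CPM after the combination treatment (SD, n = 3). ICAM4 lies inside the antisense gene ICAM4-AS1, which had 5, 29 and 20 counts in the control, decitabine and combination groups. PRR29, on the other strand, overlaps the 3′ end of ICAM2 and had 0.380 ± 0.101, 1.55 ± 0.447 and 0.721 ± 0.187 CPM (SD, n = 3) in the same order of groups. The antisense gene ENSG00000274425 overlaps ICAM3 and had 8.73 ± 0.330, 6.90 ± 0.677 and 5.81 ± 0.0560 CPM (SD, n = 3) in that order. Other antisense genes overlap ICAM1 and L1CAM and are not described here.

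ICAM1 (ENSG00000090339; chromosome 19, 10271093 to 10286615, plus strand), the ligand of the leukocyte integrins LFA-1 and Mac-1, was already abundant in the controls with 66.7, 73.4 and 66.8 CPM. Its level was 156, 188 and 187 CPM after decitabine. After the combination treatment it was 88.0, 106 and 144 CPM, a wider spread. All 3 groups were separate, with the combination treatment between the other two. The fold changes on the log2 scale were 1.36 (SE 0.16) for decitabine and 0.71 (SE 0.16) for the combination treatment against the same controls. Between the treatments, ICAM1 was lower with SAM, at -0.65 (95% interval -0.999 to -0.303, adjusted p = 0.022, edgeR's quasi-likelihood test). In the same test this call was lost without decitabine library 2 (adjusted p = 0.0848), without decitabine library 3 (adjusted p = 0.0663), without combination library 2 (adjusted p = 0.0950) and when only the 6 treated libraries were fitted (adjusted p = 0.0513), while the log2 value over the 17 alternatives stayed between -0.87 and -0.50.

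The combination library with the highest ICAM1 level also had the highest count of CD68, a glycoprotein of lysosomes in macrophages and other cells, with 2377, 2523 and 4246 counts in the combination libraries against 5228 to 7046 after decitabine and 768 to 956 in the controls. Without that library the difference of ICAM1 between the treatments was -0.87 on the log2 scale (adjusted p = 5.5e-05, edgeR's quasi-likelihood test). What sets this library apart was not tested.

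ICAM2 (ENSG00000108622; chromosome 17, 64002594 to 64020634, minus strand), an LFA-1 ligand of endothelium and platelets, had 0, 0 and 4.7 estimated counts in the controls. It had 304, 345 and 287 counts after decitabine and 216, 192 and 187 after the combination treatment. The mean was 0.0823 CPM in the controls, 13.2 ± 1.23 CPM after decitabine and 8.61 ± 0.733 CPM after the combination treatment (SD, n = 3). All 6 treated libraries were far above the controls, and every combination library lay below every decitabine library. The fitted log2 changes of 7.22 (SE 0.38) and 6.61 (SE 0.40) rest on the 1 control library with counts. Without that library the controls were at 0. Set at 3 counts, they put ICAM2 176-fold higher after decitabine and 115-fold higher after the combination treatment. These values leave out the only control library with counts and exceed the fitted folds of 149 and 97.4 over all libraries. They are therefore not lower bounds for the control group. Between the treatments ICAM2 was lower with SAM, at -0.62 on the log2 scale (95% interval -1.03 to -0.20, adjusted p = 0.0455, edgeR's quasi-likelihood test). The call lay close to the threshold and was lost when any 1 of the 6 treated libraries was left out, with adjusted p between 0.0506 and 0.195.

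ICAM3 (ENSG00000076662; chromosome 19, 10333776 to 10339661, minus strand), known from resting leukocytes, had 44.5, 49.1 and 45.8 CPM in the controls. It had 60.9, 60.7 and 65.0 CPM after decitabine and 91.5, 81.9 and 72.9 CPM after the combination treatment. The groups did not overlap and the combination treatment was the highest, which sets ICAM3 apart in order from ICAM1 and ICAM2. The log2 changes were 0.42 (SE 0.09) and 0.82 (SE 0.09) against the controls and 0.40 (SE 0.08) between the treatments. Under the 17 alternatives the last value lay between 0.31 and 0.48.

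ICAM4 (ENSG00000105371; chromosome 19, 10286955 to 10288522, plus strand), the Landsteiner-Wiener blood group protein of red cells, had 0, 1 and 2.1 estimated counts in the controls. It had 28, 23 and 23 counts after decitabine and 21.2, 17 and 23 after the combination treatment. The ratio to the controls was 21.0 for decitabine and 17.8 for the combination treatment. Both ratios rest on 3 counts over the control group and are a rough description without a test. The treated libraries overlapped, with a difference of -0.24 on the log2 scale (95% interval -0.89 to 0.41, adjusted p = 0.63, edgeR's quasi-likelihood test).

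ICAM5 (ENSG00000105376; chromosome 19, 10289952 to 10296778, plus strand), also called telencephalin and known from forebrain neurons, had 6.41, 7.35 and 7.65 CPM in the controls. Decitabine libraries held 15.6, 15.2 and 18.3 CPM, and combination libraries held 17.1, 20.9 and 20.8 CPM. Both treated groups were above the controls, by 1.20 (SE 0.12) and 1.46 (SE 0.12) on the log2 scale, and they overlapped each other. The difference of 0.26 between the treatments (95% interval 0.01 to 0.50) had a p of 0.0391 before and 0.137 after adjustment over all genes tested with edgeR's quasi-likelihood test.

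VCAM1 (ENSG00000162692; chromosome 1, 100719742 to 100739045, plus strand), the ligand of integrin α4β1, was the one gene that did not pass the filter on low counts. It had no counts in the controls, 2, 5 and 11 counts after decitabine and 0, 0 and 2 counts after the combination treatment. With the controls set at 3 counts over the group, VCAM1 was 5.11-fold higher after decitabine. This value takes the 18 counts of the decitabine group as observed and is not a lower bound. No fold is given for the combination treatment, whose 2 counts are under the limit of 3 that a count of 0 allows. The combination group was 8.77-fold lower than the decitabine group, with a 95% counting interval of 2.10 to 78.0, but both groups held a library with 2 counts. This interval pools the counts of each group and leaves out the spread between libraries.

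Windows of 250 bases before the RefSeq start sites (GRCh38.p14) were at hand for 8 of the 10 genes, and 35116 such windows for all genes. The windows of ICAM1 and VCAM1 are shown because they were the ones with a match to GGNNNTTCC, letters of the NF-kB type, searched on both strands and printed in capitals. ICAM1 held 1 match at position -186 from the start and VCAM1 held 2, at -219 and -62. At least 1 match was found in 17.1% of all windows and in none of the windows of the other 6 genes.
ICAM1, chr19:10270870-10271119, plus strand: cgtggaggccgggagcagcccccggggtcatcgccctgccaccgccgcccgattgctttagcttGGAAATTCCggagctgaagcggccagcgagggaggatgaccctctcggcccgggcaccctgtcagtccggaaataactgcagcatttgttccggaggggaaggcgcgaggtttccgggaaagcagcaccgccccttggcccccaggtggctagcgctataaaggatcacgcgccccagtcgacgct
VCAM1, chr1:100719492-100719741, plus strand: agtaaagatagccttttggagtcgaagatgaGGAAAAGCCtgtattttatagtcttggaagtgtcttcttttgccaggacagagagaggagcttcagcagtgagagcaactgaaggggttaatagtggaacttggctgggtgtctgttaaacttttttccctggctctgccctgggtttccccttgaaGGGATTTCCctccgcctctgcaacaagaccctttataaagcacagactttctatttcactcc

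Among the family's inflammatory regulators, 19 of 20 genes were tested. With decitabine 9 were higher and 4 lower, beside 36.3% and 32.5% of all genes tested, and their median log2 change was 0.65 against 0.03 over all genes tested. With the combination treatment 6 were higher and 2 lower, beside 35.9% and 31.3% of all genes, with a median of 0.24 against 0.05. RELB, a subunit of the non-canonical NF-kB pathway, rose by 2.41 and 2.32 on the log2 scale with decitabine and the combination treatment, and the canonical subunits RELA and NFKB1 were not called in either comparison. Scaled by library size alone, the number called lower with decitabine was 1 rather than 4.

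Between the treatments, 3 of these regulators were lower with SAM and 1 was higher, beside 8.02% and 7.67% of all genes. The list was chosen with earlier results of these data known, so its counts and p-values are a description. Among the lower genes, the log2 difference was -0.91 for IRF1, an interferon-induced activator of ICAM1 and VCAM1 (adjusted p = 0.0018), and -0.85 for its relative IRF2 (adjusted p = 0.00059), both by edgeR's quasi-likelihood test. The higher gene was TNFRSF1A, the main TNF receptor, with 0.25 and an adjusted p of 0.0476 by the same test, but this call was lost with DESeq2's size factors, with library size alone, with voom and limma, with only the 6 treated libraries and in every fit that left out 1 library except combination library 3. STAT3 was listed at 0 in all 9 libraries.

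L1CAM (ENSG00000198910; chromosome X, 153861514 to 153886173, minus strand) guides the growth of axons. It had 5.36, 8.45 and 12.1 CPM in the controls, 18.6, 23.2 and 27.2 CPM after decitabine and 13.8, 19.1 and 23.4 CPM after the combination treatment. It was the most variable of the genes with more than a few counts in the controls, with a coefficient of variation of 39.2%, 18.9% and 25.6% in the 3 groups, but both treated groups lay above the controls. The log2 changes were 1.41 (SE 0.31) and 1.11 (SE 0.31) against the controls. Between the treatments the difference was -0.30 (95% interval -0.96 to 0.37, adjusted p = 0.537, edgeR's quasi-likelihood test), an interval wide enough to hold differences as large as that of ICAM1. In every group the level rose from library 1 to library 3. With the replicate number in the fit, the difference was -0.31 (adjusted p = 0.0523, same test).

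ALCAM (ENSG00000170017; chromosome 3, 105366909 to 105576900, plus strand) binds itself and the T-cell receptor CD6. It had 229, 232 and 244 CPM in the controls, 350, 357 and 349 CPM after decitabine and 311, 319 and 375 CPM after the combination treatment. The rises of 0.58 (SE 0.08) and 0.51 (SE 0.08) on the log2 scale were the smallest of the 9 tested genes with the combination treatment and the smallest but for ICAM3 with decitabine. The treated groups overlapped and differed by -0.07 (95% interval -0.24 to 0.09, adjusted p = 0.57, edgeR's quasi-likelihood test).

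MCAM (ENSG00000076706; chromosome 11, 119308529 to 119321521, minus strand), first described in melanoma, had 13.2, 14.2 and 15.1 CPM in the controls. It had 89.5, 107 and 98.4 CPM after decitabine and 93.1, 93.5 and 98.7 CPM after the combination treatment. MCAM thus rose from a low to a clear level with small spread, by 2.80 (SE 0.09) and 2.75 (SE 0.09) on the log2 scale. The treated groups differed by -0.05 (95% interval -0.22 to 0.12, adjusted p = 0.698, edgeR's quasi-likelihood test), the narrowest interval together with that of ALCAM.

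Because decitabine lowers DNA methylation, the CG pairs in the windows before the start sites were counted. THY1 and ICAM2 had no window. The windows of MCAM and L1CAM and some of those of ICAM3 lie inside the gene positions given above. All windows held a median of 11, with quartiles of 3 and 23. MCAM had 26, more than 80.4% of windows, ICAM1 had 23, ICAM5 22, ALCAM 20 and ICAM4 6. VCAM1 had 2, the fewest of these genes, and the windows of ICAM3 (18, 12 and 6 at 3 start sites) and L1CAM (8 and 5 at 2 start sites) lay between. The windows of MCAM and ICAM4 are shown, with CG in capitals, as the richest window and a poor one of 2 genes that were low or near 0 in the controls and higher in both treated groups. Methylation was not measured in these libraries.
MCAM, chr11:119317131-119317380, minus strand: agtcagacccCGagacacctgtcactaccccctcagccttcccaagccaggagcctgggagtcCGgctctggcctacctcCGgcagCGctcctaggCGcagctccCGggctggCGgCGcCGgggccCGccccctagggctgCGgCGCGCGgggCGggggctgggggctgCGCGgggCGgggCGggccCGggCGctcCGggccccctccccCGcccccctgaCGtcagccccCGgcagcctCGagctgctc
ICAM4, chr19:10286705-10286954, plus strand: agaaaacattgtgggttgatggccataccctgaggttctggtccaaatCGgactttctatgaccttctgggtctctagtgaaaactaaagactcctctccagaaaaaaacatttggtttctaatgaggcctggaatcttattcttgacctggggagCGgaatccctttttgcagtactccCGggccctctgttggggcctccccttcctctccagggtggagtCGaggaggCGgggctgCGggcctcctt

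Levels of different genes were compared per kb of exon, in CPM per kb. Exon length was that of all annotated exons of a gene together, which can exceed the length of the transcripts present. The order and overlaps between genes are therefore approximate. In the controls the order was ALCAM (32.7), ICAM1 (20.003), ICAM3 (16.7), MCAM (1.91), ICAM5 (1.81), L1CAM (1.19), ICAM4 (0.0345), ICAM2 (0.0254) and, at 0, THY1 and VCAM1. The libraries of MCAM overlapped with those of ICAM5, and those of ICAM5 with L1CAM, while every MCAM library lay above every L1CAM library. ICAM4, ICAM2 and the genes at 0 overlapped. After decitabine ICAM1 (51.4) and ALCAM (49.0) overlapped at the top, followed by ICAM3 (22.3), MCAM (13.3), ICAM5 (4.16) and ICAM2 (4.07), which overlapped, L1CAM (3.17), THY1 (0.794) and ICAM4 (0.725), which overlapped, and VCAM1 (0.0420). After the combination treatment ALCAM (46.7) was alone at the top, and ICAM1 (32.7) overlapped with ICAM3 (29.4). MCAM (12.8), ICAM5 (4.98), ICAM2 (2.65), L1CAM (2.58), THY1 (0.824), ICAM4 (0.612) and VCAM1 (0.00469) followed, with overlaps of ICAM2 with L1CAM and of THY1 with ICAM4.

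**Figure D2:**
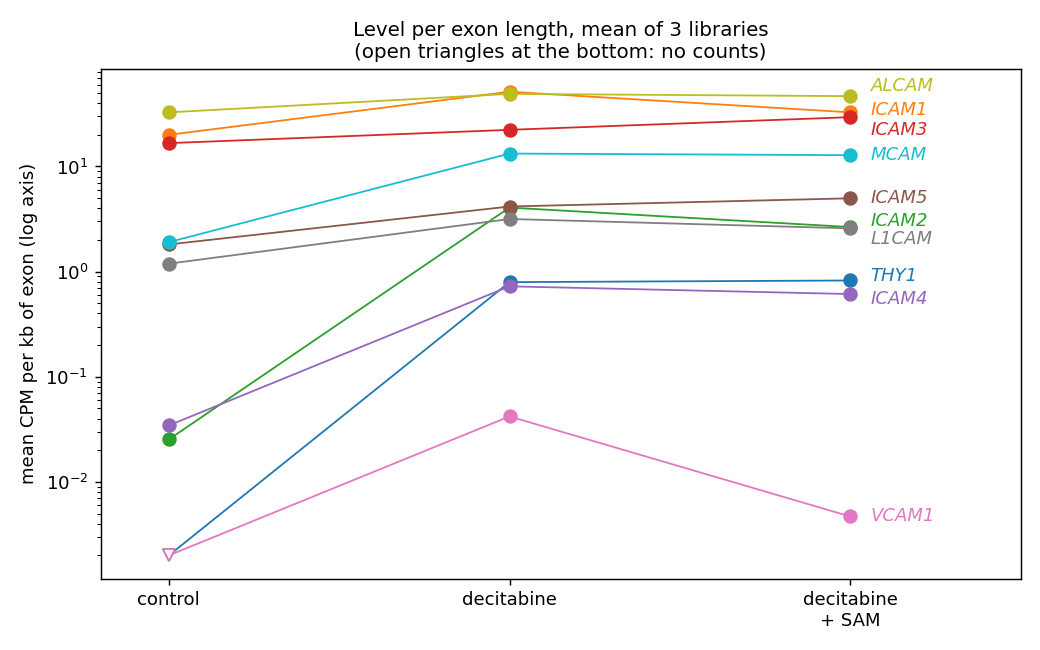
Mean level of each gene in CPM per kb of exon on a log axis, for controls, decitabine and decitabine with SAM, with 3 libraries per group and open triangles at the bottom for no counts. ICAM2 moves from 0.0254 to 4.07 and THY1 from no counts to 0.794 with decitabine, while the first 3 places are held by ALCAM, ICAM1 and ICAM3 in every group.

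Because the 10 genes were chosen on their changes against the controls, no count of calls among them is given for those comparisons, and THY1, ICAM2 and ICAM4 passed the filter on low counts through the treated groups alone. Of all genes tested, 36.3% were higher and 68.8% called in either direction after decitabine, and 35.9% and 67.2% after the combination treatment. The median log2 change over all genes tested was 0.03 and 0.05, and with library size as the only scaling it moved to 0.28 and 0.27. Both comparisons with the controls share those controls. Between the treatments, 2 of the 8 genes tested were lower (ICAM1 and ICAM2) and 6 were not called, beside 8.02% of all genes called lower and 15.7% called in either direction. The libraries of 3 of the 10 genes did not overlap between the treatments, beside 34% of all genes tested, and one of them was ICAM3, whose difference was known beforehand.

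**Figure D3:**
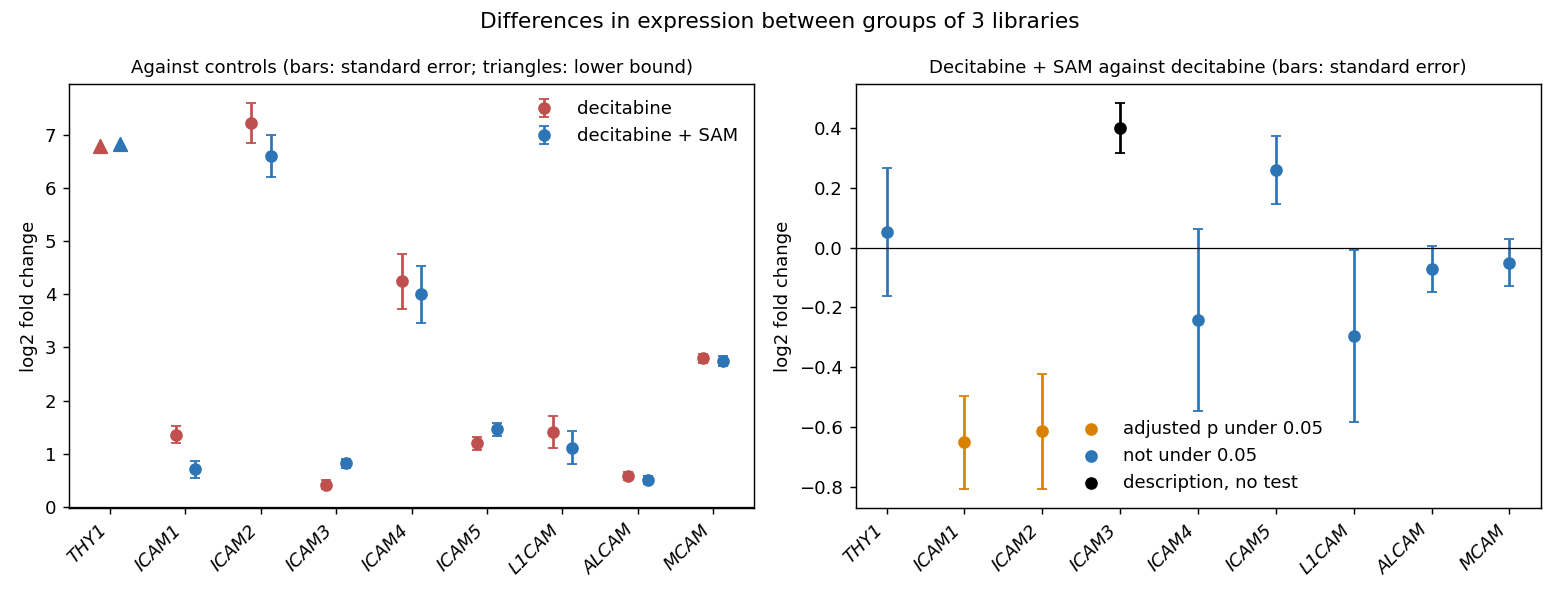
Log2 fold changes of the 9 genes tested, with the standard error as bars, for each treatment against the controls (left) and for decitabine with SAM against decitabine (right). Triangles give the lower bounds of THY1, and of the differences between the treatments those of ICAM1 (-0.65) and ICAM2 (-0.62) passed the threshold while that of ICAM3 (0.40) is a description.

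Of 20 binding partners of these molecules, 14 were tested. With decitabine 12 were higher and 1 lower, beside 36.3% and 32.5% of all genes tested, and with the combination treatment 11 were higher and 0 lower, beside 35.9% and 31.3%. Their median log2 changes were 1.29 and 1.19. Some of them, ITGA4 and CNTN2 included, were near 0 in the controls and passed the filter on low counts through the treated groups alone. Such genes could only come out higher, so these counts and medians are a description. ITGA4, the α4 chain of the VCAM1 receptor, had 0.0829 ± 0.0291 CPM in the controls, 2.23 ± 0.574 CPM after decitabine and 2.41 ± 0.513 CPM after the combination treatment (SD, n = 3). ITGB7, which pairs with the α4 chain, rose by 2.74 and 3.21 on the log2 scale. ITGB3, whose αVβ3 integrin binds THY1 and L1CAM, rose by 2.46 and 1.51. The gene lower with decitabine was NRP1, a partner of L1CAM, at -0.22. That call was lost with DESeq2's size factors, with library size alone, with a filter at a mean of 10 counts, with only the 6 libraries compared and without control library 1 or 2, decitabine library 2 or 3 or combination library 2.

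Between the treatments 4 binding partners were lower with SAM and 1 was higher, beside 8.02% and 7.67% of all genes. This list too was chosen with earlier results known, so its counts and p-values are a description. ITGB2, the β2 chain shared by the leukocyte receptors of the ICAMs, had 2.48 ± 0.182 CPM in the controls, 11.8 ± 1.18 after decitabine and 5.57 ± 0.536 after the combination treatment (SD, n = 3), a log2 difference of -1.09 between the treatments (adjusted p = 0.00041, edgeR's quasi-likelihood test). ITGB3 differed by -0.96 (adjusted p = 0.0029, edgeR's quasi-likelihood test). The other two lower genes, ADGRE5 (CD97), a partner of THY1, at -0.38 and CNTN2, a neural partner of L1CAM, at -1.43, were named after their values were seen. The higher gene was ITGB5 at 0.39 (adjusted p = 0.0043, edgeR's quasi-likelihood test). The α chains that pair with ITGB2, namely ITGAL, ITGAM, ITGAX and ITGAD, did not pass the filter on low counts.

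The other immunoglobulin adhesion molecules moved in both directions. Of 40 genes 25 were tested. With decitabine 14 were higher and 7 lower, beside 36.3% and 32.5% of all genes tested. With the combination treatment 14 were higher and 6 lower, beside 35.9% and 31.3%. The medians of the 25 genes were 0.37 and 0.54. Some of the higher ones, NRCAM and CEACAM6 included, passed the filter on low counts through the treated groups alone. CEACAM6, a carcinoma-associated molecule, rose by 4.46 and 4.57 on the log2 scale. ESAM of endothelial junctions rose by 2.70 and 3.10, NRCAM, a close relative of L1CAM, by 4.85 and 5.06, and CEACAM1 by 3.50 and 2.38. Between the treatments 0 were called higher and 1 lower by edgeR, beside 7.67% and 8.02% of all genes. At an unadjusted p under 0.05 the numbers were 2 and 4. DESeq2 called 0 and 1, and voom with limma 0 and 2. The lower gene was NECTIN2, a ligand of the immune receptor PVRIG, at -0.43 (adjusted p = 0.0021, edgeR's quasi-likelihood test). Scaled by library size alone, the number lower with decitabine was 3 rather than 7.

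All 16 genes for the enzymes that shed these molecules and for the proteins that tie them to the cytoskeleton were tested. With decitabine 6 were higher and 7 lower, beside 36.3% and 32.5% of all genes tested. With the combination treatment 5 were higher and 7 lower, beside 35.9% and 31.3%. The list medians of 0.13 and 0.05 were near those of all genes. ADAM8, a sheddase, rose by 2.38 and 2.21, and ANK1, an ankyrin, by 1.57 and 1.20. BACE1, a protease known from amyloid precursor cleavage, was lower, with log2 changes of -1.01 and -1.17. ADAM17, a main sheddase of ICAM1 and VCAM1, had log2 changes of -0.42 and -0.61, and ADAM10 was not called. With library size as the only scaling, 2 rather than 7 were lower with decitabine and 8 rather than 5 higher with the combination treatment. Between the treatments RDX (0.25) was higher and ANK2 (-0.47) and VCL (-0.36) were lower by edgeR, beside 7.67% and 8.02% of all genes. All 3 calls were lost without decitabine library 1, decitabine library 2 or combination library 2, both lower calls also without combination library 1, and 1 of them without control library 2. The call of RDX was also lost with library size as the only scaling. With only the 6 treated libraries fitted, RDX and 1 of the lower calls were lost.

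**Figure D4:**
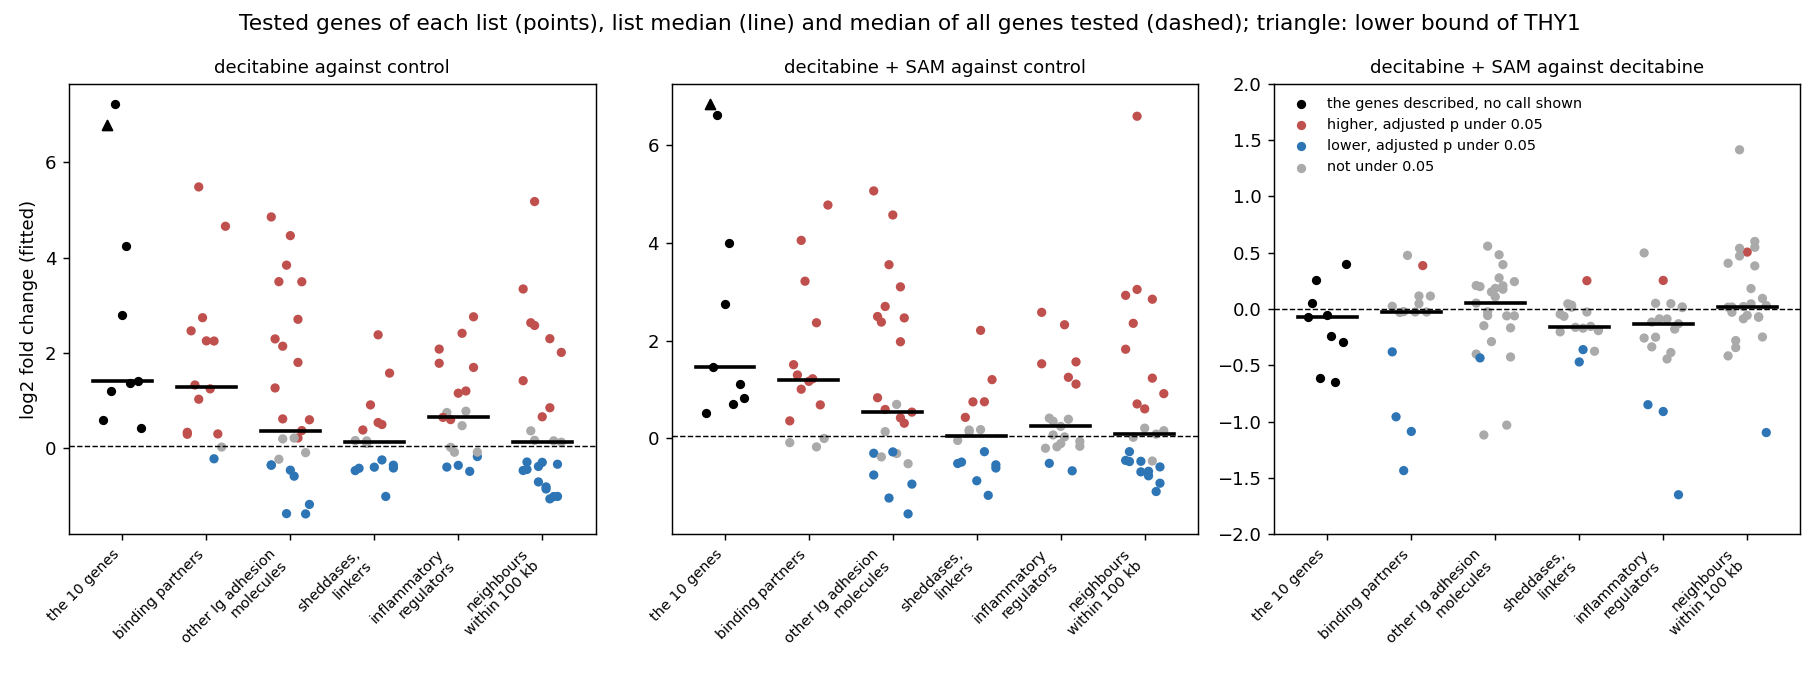
Fitted log2 fold changes of the genes tested in each list, in 3 comparisons between groups of 3 libraries, with black lines for list medians, a dashed line for the median of all genes tested and a triangle for the lower bound of THY1. Binding partners have a median of 1.29 after decitabine, whereas linkers and sheddases (0.13) and neighbours (0.12) lie near the 0.03 of all genes.

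ICAM1, ICAM4, ICAM5 and ICAM3 lie together on chromosome 19, with 339 bases between ICAM1 and ICAM4 and 1429 between ICAM4 and ICAM5. THY1 and MCAM lie on chromosome 11 with starts 103.5 kb apart. Of 55 other genes with a start within 100 kb of one of the 10 genes, 25 were tested. With decitabine 9 were higher and 12 lower, beside 36.3% and 32.5% of all genes tested. With the combination treatment 10 were higher and 10 lower, beside 35.9% and 31.3%. The medians were 0.12 and 0.08. With library size as the only scaling, 7 rather than 12 were lower with decitabine. USP2, between MCAM and THY1, rose by 1.42 and 1.82 on the log2 scale. ARHGAP4 and PDZD4, on either side of L1CAM, rose by 3.34 and 2.92 and by 2.57 and 3.05. Between the treatments 1 neighbour was higher and 1 lower, beside 7.67% and 8.02% of all genes. FDX2, between ICAM5 and ICAM3, was higher by 0.50 (adjusted p = 0.0038, edgeR's quasi-likelihood test), and the lower gene was PRR29 at -1.10, which overlaps ICAM2 and was named after its value was seen. The call of PRR29 was lost with DESeq2 and without decitabine library 1 or 3 or combination library 1 or 2.

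Some markers of other cell types were also higher in the treated groups. Among fibroblast markers 6 of 8 tested were higher and 0 lower in both comparisons with the controls, and COL3A1 and PDGFRB were not called. Among 7 endothelial markers tested, 5 were higher and 0 lower with decitabine, and 4 were higher and 1 lower with the combination treatment, where ROBO4 had a log2 change of -0.60. KDR and TIE1 were not called. Of the leukocyte markers 4 were tested and 4 were higher in both comparisons, beside 36.3% and 35.9% of all genes tested. All of these 4 but CD68 were near 0 in the controls and passed the filter on low counts through the treated groups alone. Some of the fibroblast and endothelial markers did the same, and such genes could only come out higher. The marker counts are therefore a description. The sums over each list rest on few genes. The summed level of 10 fibroblast markers was 7.36 to 9.71 CPM in the controls, 103 to 145 CPM after decitabine and 92.6 to 117 CPM after the combination treatment, led by COL1A1, with FAP at 0 in the controls. For 10 endothelial markers it was 45.3 to 48.7, 67.4 to 86.1 and 69.0 to 75.5 CPM, led by ROBO4 in the controls and PECAM1 in the treated groups (10.1, 35.1 and 39.7 CPM on average in the 3 groups), with CLDN5 at 0 in the controls. For 10 leukocyte markers it was 38.6 to 48.5, 224 to 302 and 106 to 184 CPM, nearly all from CD68, with CD3E, CD3D and NKG7 among the 4 markers at 0 in the controls and NKG7 at 0 in all libraries. CD3E had at most 2 counts in any library, and the pan-leukocyte marker PTPRC had 1 to 2, 21 to 30 and 13 to 23 counts in the 3 groups. PECAM1 is itself an immunoglobulin adhesion molecule. The part of these markers' cell types in the levels of the 10 genes was not tested.

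Across the 9 libraries, the genes whose log2 CPM followed that of THY1 most closely were MDGA2 (Pearson's r = 0.999), SYP, SPANXA1, LINC01602 and GPX3, of 14314 genes compared. As many as 1707 genes had r over 0.95. SPANXA1 has near-identical copies, and its counts are uncertain. For ICAM3, CFAP298 (r = 0.995), NUDT9, DDAH2, CRADD and LTBP3 (r = 0.989) were the closest, and 157 genes had r over 0.95. These correlations describe libraries that fall into 3 groups and share their scaling.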

How the data were processed

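According to the study's methods and the labels, reads were trimmed with Trim Galore 0.6.4 and quantified with kallisto against GRCh38. The values analysed are the authors' estimated counts as deposited for each Ensembl gene, with decimals and without normalization. The deposited log2 CPM were made from the same counts and were not used. The 10 genes and the gene lists were chosen with earlier results of these data known. Counts of calls and p-values for genes of the lists are therefore a description and no independent test.

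After rounding, 18532 genes passed filterByExpr. The main test was the robust quasi-likelihood test of edgeR 4.0.16 (R 4.3.3) after TMM scaling, two-sided, with 1 mean per group over 9 libraries. Benjamini-Hochberg adjustment covered every gene tested, with a threshold of 0.05 and none on the fold change. The script was tested on simulated data, in which a small part of the genes changed and the spread was fixed. That simulation did not test the scaling where most genes differ, as they do here against the controls. For lower bounds, 3 counts stood in for a group at 0, and the counts of the other group were taken as observed. A chi-square test over genes compared the libraries within each group, and values of 6.17 to 24.97 per degree of freedom showed no copies. Positions and exon lengths came from GENCODE release 44, and start-site windows from RefSeq. All 146 list genes were matched.

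Named were the 10 genes, and from each list the 3 largest changes per comparison among called genes averaging 50 or more counts in a group, the leading marker and markers at 0, and the 5 genes most like THY1 and ICAM3. NRP1, ADGRE5, CNTN2, TNFRSF1A, RELA, NFKB1, ADAM10, ADAM17, PTPRC, COL3A1, PDGFRB, KDR, TIE1, KRT19, CLDN4, CDH1, CLDN7, KLK3, STAT3, ITGA5, ITGAL, ITGAM, ITGAX, ITGAD, IL1B, THY1-AS1, ICAM4-AS1, USP2-AS1, ENSG00000274425 and PRR29 fall outside this rule and were named after their values were seen. Alternatives changed the scaling (DESeq2's size factors, or none beyond library size), the tool (DESeq2 1.42.0, or voom in limma 3.58.1), the filter, the libraries fitted and the use of the replicate number as a block, or left out 1 library. Some results on single genes named by this rule are left out of the text.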

Additional observations from a re-analysis of the deposited data

How the results depend on the processing

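Between the treatments, with only the 6 treated libraries fitted, 1 gene was called lower (ICAM2) in place of 2. Over the 9 fits that left out 1 library, 0 to 2 genes were lower, and the number past the threshold was 1 to 3 with ICAM3 counted in, whose difference is a description. The difference of THY1 between the treatments changed sign without decitabine library 1 (-0.11 on the log2 scale) and without combination library 2 (-0.0967), within a range of -0.11 to 0.22, and that of MCAM without decitabine library 2 (0.017), within -0.11 to 0.017. None of these values was called. The cause of these changes was not tested. Over all genes tested, scaling by library size alone gave 3746 lower and 8849 higher genes with decitabine, in place of 6030 and 6729. For the combination treatment it gave 3857 and 8695, in place of 5799 and 6647. Between the treatments, leaving out 1 library moved the genes called higher to between 381 and 2066 and lower to between 480 and 1997. Of the list counts between the treatments, that of neighbours called higher moved most, from 1 to 4 without decitabine library 3. Low counts limit VCAM1, ICAM4 and the controls of ICAM2, where single libraries set the fold.

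The groups share replicate numbers. Deviations of libraries with the same number correlated at -0.0165 to 0.233 over 9 pairs, and those with different numbers at -0.220 to 0.0579 over 18 pairs. Between the decitabine and combination groups, the pairs numbered 1 and 3 had 0.233 and 0.229 and the pair numbered 2 had 0.0359. Library 1 of either group with library 3 of the other had -0.220. Because not every pair passed 0.1, the main test left the numbers out, although these treated libraries numbered 1 and 3 did share deviations. With the replicate number as a block, ICAM1 (-0.67 on the log2 scale, adjusted p = 0.0040) and ICAM2 (-0.61, adjusted p = 0.0392) were again lower with SAM in edgeR's quasi-likelihood test. The other 6 genes tested were not called, but L1CAM (-0.31) came close to the threshold. Its adjusted p was 0.0523 with the block and 0.537 without it in the same test. Of all genes, 1766 were called higher and 1890 lower, against 1421 and 1487 without the block.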

Other observations

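Within each group, the libraries numbered 1 and 3 differed most, with a chi-square statistic per degree of freedom over genes of 17.98, 19.2 and 24.97 in the control, decitabine and combination groups. The pairs of libraries 1 and 2 had 8.46, 6.66 and 6.17, and the pairs of libraries 2 and 3 had 6.72, 8.74 and 16.1. Of the 18532 genes tested, 456 (2.46%) had their lowest level in library 1 and their highest in library 3 of all 3 groups, and 412 (2.22%) had the reverse order in all 3 groups. Each of the other 4 orders was shared by the 3 groups for 50 to 65 genes (0.27% to 0.35%). L1CAM, the most variable of the described genes with more than a few counts in the controls, was among the 456, as were the fibronectin receptor chain ITGA5, the adhesion molecule NECTIN2 and the cytokine IL1B, while NRP1 was among the 412. The labels give no meaning to the replicate numbers beyond the number itself, and what the numbers stand for was not tested.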
